A study of Mus musculus with 6 samples.

Results

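Chemokine ligands are small secreted or membrane-anchored proteins that guide migrating cells. They are grouped by the spacing of their first conserved cysteines into CXC, CC and CX3C types, and they act on G-protein coupled receptors named after the same types. In injured muscle they are best known for drawing neutrophils and monocytes into the tissue, while CXCL12 also acts on satellite cells through its receptor CXCR4. Many inflammatory chemokine genes lie side by side in clusters and carry NF-kB sites in their promoters. The genes described here are 10 chemokine ligand genes, out of 55536 genes in the count tables, that were listed by symbol: Cxcl1, Cxcl2, Cxcl5, Cxcl12, Cxcl14, Cxcl16, Ccl2, Ccl7, Ccl9 and Cx3cl1. The list was drawn up with measured values of these samples in view, the levels and the difference between cKO and control included. Their levels and differences are therefore given as a description, with no p-value. The lists of other genes set beside them were also drawn up with earlier results of these data known. Counts of calls in those lists are thus descriptions too, also where the share over all genes is given. P-values printed for single genes of those lists come from the fit over all genes and carry the same limit.

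Satellite cells, which are the stem cells of skeletal muscle, were profiled by RNA-seq from adult male mice on a C57BL/6J background. Control mice were Pax7CreErt2;Hira fl/+ (n = 3) and cKO mice were Pax7CreErt2;Hira fl/fl (n = 3), and both genotypes received tamoxifen, so the controls also carry the Cre driver and a floxed Hira allele, although their labels call them wild type. CreErt2 is expressed from Pax7, so that Hira, which encodes a histone chaperone, is deleted in Pax7-expressing cells and not in other cells of the muscle. The tibialis anterior was injured with barium chloride, and the cells were sorted 5 days post-injury as CD34+ ITGA7+ CD45- TER119- SCA1- and cultured for 48 h. The study describes independent RNA samples without saying whether each came from a separate mouse, and p-values then measure only the spread between these samples. Counts per sample summed to 47944477 to 63323577. Hira itself had 375, 348 and 341 counts in the 3 controls and 161, 293 and 272 in the cKO samples, with a log2 fold change of -0.43 (SE 0.12, with SE the standard error; edgeR adjusted p = 0.0237). Leaving out control replicate 1 ended this call (adjusted p = 0.104), and without cKO replicate 1, the lowest sample, the log2 fold change was -0.29. For satellite cells of the same genotypes the paper reports a sharp fall of Hira RNA by RT-qPCR and no detected HIRA protein. The counts used here are of the whole gene, and reads of single exons were not examined. The satellite cell markers were abundant, with a summed level of 5056 to 5165 CPM (counts per 1000000 counts of a sample) in control and 4539 to 4873 CPM in cKO. Of these 10 markers, 7 were called lower and 1, Cd34, higher in cKO, beside 6.46% and 9.38% of all genes tested. The highest count of 1 marker in a sample was 201659, which is most of the sum of that sample.

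Promoter windows were found in RefSeq (GRCm38.p6, the build of mm10) for 6 of the 10 genes: Cxcl1, Cxcl2, Cxcl12, Cxcl14, Ccl9 and Cx3cl1. Each window was read as the 250 bases before the RefSeq start, 5′ to 3′ on the strand of the gene. Cxcl1 and Cxcl2 are shown together with Cxcl3, a gene of the same cluster that is not among the 10, since the same run of 11 bases stands in all of them. Ccl9 is shown as a CC gene that differed strongly, and Cxcl12 as the gene with the most counts and a small difference. Capitals mark matches to the NF-kB consensus, searched on both strands with overlapping matches joined.
Cxcl1, chr5:90890995-90891244, plus strand: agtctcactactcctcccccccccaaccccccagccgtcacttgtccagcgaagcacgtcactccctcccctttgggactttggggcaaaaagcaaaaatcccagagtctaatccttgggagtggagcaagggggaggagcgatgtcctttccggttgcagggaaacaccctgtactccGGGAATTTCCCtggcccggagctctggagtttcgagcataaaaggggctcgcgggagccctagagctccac
Cxcl2, chr5:90903649-90903898, plus strand: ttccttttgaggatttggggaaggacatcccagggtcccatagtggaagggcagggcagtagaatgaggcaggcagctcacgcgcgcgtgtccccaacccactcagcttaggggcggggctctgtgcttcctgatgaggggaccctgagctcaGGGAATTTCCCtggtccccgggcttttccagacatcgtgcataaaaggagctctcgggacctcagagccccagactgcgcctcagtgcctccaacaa
Cxcl3, chr5:90785851-90786100, plus strand: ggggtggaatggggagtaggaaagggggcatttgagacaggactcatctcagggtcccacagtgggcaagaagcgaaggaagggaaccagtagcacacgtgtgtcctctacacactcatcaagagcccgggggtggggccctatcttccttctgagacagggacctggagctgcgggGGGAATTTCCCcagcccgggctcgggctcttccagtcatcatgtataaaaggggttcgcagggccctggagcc
Ccl9, chr11:83578637-83578886, minus strand: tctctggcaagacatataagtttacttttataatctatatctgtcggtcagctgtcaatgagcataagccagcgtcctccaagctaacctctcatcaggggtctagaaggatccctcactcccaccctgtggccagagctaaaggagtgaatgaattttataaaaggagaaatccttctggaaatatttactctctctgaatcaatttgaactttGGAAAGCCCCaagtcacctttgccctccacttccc
Cxcl12, chr6:117168285-117168534, plus strand: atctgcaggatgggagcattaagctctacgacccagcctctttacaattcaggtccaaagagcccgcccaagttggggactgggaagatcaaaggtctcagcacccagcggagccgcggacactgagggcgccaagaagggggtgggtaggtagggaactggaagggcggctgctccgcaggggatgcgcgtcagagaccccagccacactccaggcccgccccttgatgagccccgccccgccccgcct
The run GGGAATTTCCC began 71 bases before the start of Cxcl1, 97 before that of Cxcl2 and 73 before that of Cxcl3. The run was picked because these windows share it, so its presence in them was given in advance. It was present in 14 of all 32851 promoter windows of this length (0.0426%), the windows of Cxcl1, Cxcl2 and Cxcl3 included. The NF-kB consensus was present in 7.25% of all windows. Ccl9 held a different match on the strand opposite to the gene, 35 bases before its start. No match was found in the windows of Cxcl12, Cxcl14 and Cx3cl1. Among the other ligands with a window, Cxcl10, Ccl1 and Ccl20 also held matches, and these genes had too few counts to be tested. The windows of Pf4, Ppbp and Ccl6, which were called higher in cKO, held none. Whether matches go with differences was not tested. The AP-1 letters TGANTCA were found in the window of Ccl9 and in 6.75% of all windows. The letters TATAAA were found for Ccl9, Cxcl3 and Cx3cl1 and in 12.4% of all windows. The GC box GGGCGG was found for Cxcl2, Cxcl12 and Cx3cl1 and in 32.7% of all windows, with 5 matches in that of Cxcl12. These are matches of letters and no binding was measured here.

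Of the 10 ligand genes 9 had enough counts to be tested, and 8 of these were called higher and 0 lower in cKO (edgeR quasi-likelihood fit, adjusted p under 0.05). Over all 22404 genes tested, 9.38% were called higher and 6.46% lower. The gene not called was Cx3cl1, and Cxcl2 had too few counts to be tested. At an unadjusted p under 0.05, 9 of the 9 were higher and 0 lower, and with DESeq2 8 were called higher and 0 lower. As the list was drawn up with the difference between cKO and control in view, these counts only describe the listed genes. They are no support for a difference. The median log2 fold change of the 9 genes was 1.37, beside -0.0011 over all genes tested. Summed over the 10 genes, the level was 65.9, 63.0 and 63.0 CPM in control replicates 1, 2 and 3, and 111, 127 and 113 CPM in the cKO replicates. In bulk RNA, more cells that make a transcript and more transcript per cell cannot be told apart.

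**Figure D1:**
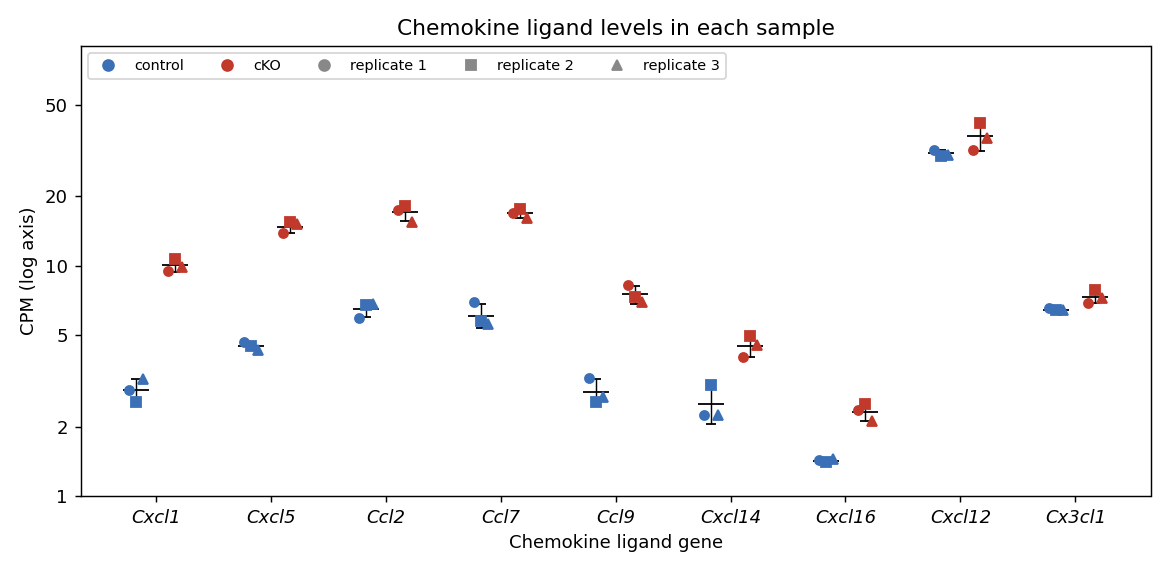
CPM on a log axis of the 9 tested chemokine ligand genes in each control (blue) and cKO (red) sample, with the mean and SD of each group (n = 3) in black and the replicate number shown by the marker shape. The cKO samples lie above all control samples for every gene shown except Cxcl12, whose cKO replicate 1 lies among the controls.

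Cxcl1, Cxcl2 and Cxcl5 encode CXC ligands that act on CXCR2 and attract neutrophils, and Cxcl1 and Cxcl5 had the largest differences of the 9 tested genes. Cxcl1 (ENSMUSG00000029380, chromosome 5 of mm10, 90891241 to 90893115) was at 2.90, 2.56 and 3.22 CPM in the control samples and 9.53, 10.7 and 9.83 CPM in the cKO samples. The samples of each group lay close together, and every cKO sample was far above the highest control sample. The log2 fold change was 1.77 (SE 0.09), a 3.41-fold higher level. Cxcl5 (ENSMUSG00000029371, chromosome 5, 90759360 to 90761624) was at 4.67, 4.50 and 4.32 CPM in the control samples and 13.8, 15.5 and 15.1 CPM in the cKO samples. The groups were again well apart, with a log2 fold change of 1.70 (SE 0.07). Cxcl2 (ENSMUSG00000058427, chromosome 5, 90903871 to 90905938) was almost undetected, with 0, 0 and 2 counts in the 3 controls and 6, 5 and 1 in the cKO samples. The group sums were 2 and 12 counts, and the sample values overlapped. Counts this few allow no statement on a difference. Of the 75-base windows of the Cxcl2 transcripts, 4.57% also occur in Cxcl3, and whether its few reads fell there was not examined.

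The CC ligands that attract monocytes followed. Ccl2, which acts on CCR2 (ENSMUSG00000035385, chromosome 11, 82035571 to 82037453), was at 5.94, 6.73 and 6.82 CPM in the control samples and 17.4, 18.2 and 15.5 CPM in the cKO samples, with a log2 fold change of 1.37 (SE 0.07). Its neighbour Ccl7, another ligand of CCR2 (ENSMUSG00000035373, chromosome 11, 82045712 to 82047525), was at 6.93, 5.73 and 5.59 CPM in the control samples and 16.9, 17.7 and 16.2 CPM in the cKO samples. That is a log2 fold change of 1.45 (SE 0.07), and for both genes the lowest cKO sample was above 2 times the highest control sample. Ccl9 (ENSMUSG00000019122, chromosome 11, 83572919 to 83578636), a ligand of CCR1, was at 3.27, 2.57 and 2.69 CPM in the control samples and 8.26, 7.34 and 6.97 CPM in the cKO samples. Its log2 fold change was 1.38 (SE 0.10). Replicate 1 was the highest sample of each group for Ccl9, whereas cKO replicate 2 was the highest of its group for the other 8 tested ligands.

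Differences were smaller for Cxcl14 and Cxcl16. Cxcl14 (ENSMUSG00000021508, chromosome 13, 56288643 to 56296551), a CXC ligand that is constitutively made in epithelia, was at 2.25, 3.03 and 2.25 CPM in the control samples and 4.03, 4.97 and 4.53 CPM in the cKO samples. Control replicate 2 stood above the other controls and still below every cKO sample, and the log2 fold change was 0.82 (SE 0.12). Cxcl16 (ENSMUSG00000018920, chromosome 11, 70453983 to 70459984), a membrane-anchored ligand of CXCR6, was at 1.43, 1.41 and 1.45 CPM in the control samples and 2.36, 2.52 and 2.11 CPM in the cKO samples. The controls were nearly equal and the log2 fold change was 0.68 (SE 0.12). Of its exonic bases 18.3% overlap Zmynd15 on the other strand, and the strand setting of the counting is not given in the sources used here, so reads of that part are uncertain.

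The remaining 2 ligands differed little. Cxcl12 (ENSMUSG00000061353, chromosome 6, 117168535 to 117181367), the ligand of CXCR4 and ACKR3, had the most counts of the 10 genes and was at 32.0, 30.1 and 30.2 CPM in the control samples and 31.8, 41.8 and 35.8 CPM in the cKO samples. The groups overlapped, as cKO replicate 1 lay below control replicate 1. The log2 fold change of 0.23 (SE 0.07) was called, but not with control replicate 2, control replicate 3, cKO replicate 2 or cKO replicate 3 left out, and without cKO replicate 2 it was 0.12. Nor was Cxcl12 called with the replicate number as a block (log2 fold change 0.22). Cx3cl1 (ENSMUSG00000031778, chromosome 8, 94772009 to 94782427), a membrane-anchored ligand of CX3CR1, was at 6.56, 6.41 and 6.40 CPM in the control samples and 6.90, 7.83 and 7.25 CPM in the cKO samples. Every cKO sample was above every control sample, with a log2 fold change of 0.16 (SE 0.07) that was not called. Counting Cx3cl1, the groups did not overlap for 8 of the 10 genes, all higher in cKO. Over all genes tested, 20.3% had every cKO sample above every control sample and 11.1% every cKO sample below. The list was drawn up with this difference in view, so its count is a description.

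Between genes, levels were compared per length, as CPM per kilobase of annotated exon. In control the order was Ccl7 (7.60 ± 0.922, SD, n = 3), Ccl2 (5.71 ± 0.425), Cxcl12 (3.76 ± 0.129), Cxcl5 (2.41 ± 0.0946), Cx3cl1 (1.64 ± 0.0227), Cxcl1 (1.54 ± 0.178), Cxcl14 (1.37 ± 0.248), Ccl9 (0.934 ± 0.123), Cxcl16 (0.473 ± 0.00736) and Cxcl2 (0.00525 ± 0.00909). The samples of Cx3cl1 and Cxcl1 overlapped, as did those of Cxcl1 and Cxcl14, while the other neighbours in this order did not. In cKO Ccl7 (21.1 ± 0.954) and Ccl2 (15.0 ± 1.21) stayed at the top, and Cxcl5 (7.95 ± 0.464) and Cxcl1 (5.35 ± 0.334) stood above Cxcl12 (4.46 ± 0.617), with the samples of Cxcl1 and Cxcl12 overlapping. Ccl9 (2.47 ± 0.219) and Cxcl14 (2.47 ± 0.259) overlapped with each other and were followed by Cx3cl1 (1.86 ± 0.119), Cxcl16 (0.771 ± 0.0676) and Cxcl2 (0.0367 ± 0.0262). With the longest transcript as the length in place of all exons, Cxcl12 was at 5.47 ± 0.187 in control and 6.48 ± 0.896 in cKO, where its samples overlapped those of Ccl2 in control and those of Cxcl5 and Cxcl1 in cKO.

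The other chemokine ligands were examined as a list of 29 genes, of which 11 were tested. In edgeR's quasi-likelihood test 4 were upregulated and 0 downregulated, with a median log2 fold change of 0.74, beside 9.38% of all genes called higher. At an unadjusted p under 0.05 there were 6 higher and 0 lower, and with DESeq2 3 were called higher and 0 lower. The upregulated genes were Pf4, Ppbp and Cxcl3 of the chromosome 5 cluster and Ccl6, the neighbour of Ccl9. Pf4 and Ppbp encode chemokines best known from platelets, and Pf4 is also made by macrophages.
Pf4 was at 0.619, 0.663 and 0.407 CPM in the control samples and 2.32, 1.76 and 1.95 CPM in the cKO samples, with a log2 fold change of 1.80 (SE 0.19, edgeR adjusted p = 8.56e-06). Ppbp was at 0.477, 0.300 and 0.261 CPM in the control samples and 1.06, 1.05 and 1.38 CPM in the cKO samples, with a log2 fold change of 1.74 (SE 0.24, edgeR adjusted p = 0.000114). Ccl6, a CC ligand of macrophages and other myeloid cells, was at 0.902, 0.742 and 0.684 CPM in the control samples and 2.17, 1.79 and 1.81 CPM in the cKO samples. Its log2 fold change was 1.28 (SE 0.16, edgeR adjusted p = 4.78e-05), and for all 3 of these genes the groups were clearly apart.
Cxcl3, a ligand of CXCR2, was at 0.601, 0.490 and 0.570 CPM in the control samples and 0.709, 1.15 and 0.931 CPM in the cKO samples. Its log2 fold change of 0.74 (SE 0.22, edgeR adjusted p = 0.0284) was not called with DESeq2 (adjusted p = 0.108), with the replicate block (0.0546) or with any sample but cKO replicate 1 left out (0.0531 to 0.139). Not called were Ccl3 (log2 fold change 0.94, edgeR adjusted p = 0.0712), Ccl28 (1.02, adjusted p = 0.0600) and Ccl17 (-0.47, adjusted p = 0.522). Both Ccl3 and Ccl28 were called when no filter on low counts was used and without cKO replicate 1, and Ccl28 also without control replicate 3, where its log2 fold change was 1.54.
Ccl25, a thymus and gut chemokine, had the most counts of the other ligands. It was at 9.18 ± 0.446 CPM in the control and 9.07 ± 0.932 in the cKO group (SD, n = 3 each). Its log2 fold change was -0.04 (edgeR adjusted p = 0.813). The annotated exons of Ccl25 span 7445 bases, so its counts do not make it the highest per length. Ccl27a was at 2.94 ± 0.170 and 2.81 ± 0.314 CPM (log2 fold change -0.09, adjusted p = 0.655), and 33.3% of its 75-base windows also occur in near-identical copies. The interferon-induced Cxcl9, Cxcl10 and Cxcl11 were too low to test. Cxcl10 had 8, 12 and 6 counts in the 3 controls and 8, 16 and 5 in the cKO samples, and no sample had more than 2 counts of Cxcl9 or more than 1 of Cxcl11.

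**Figure D2:**
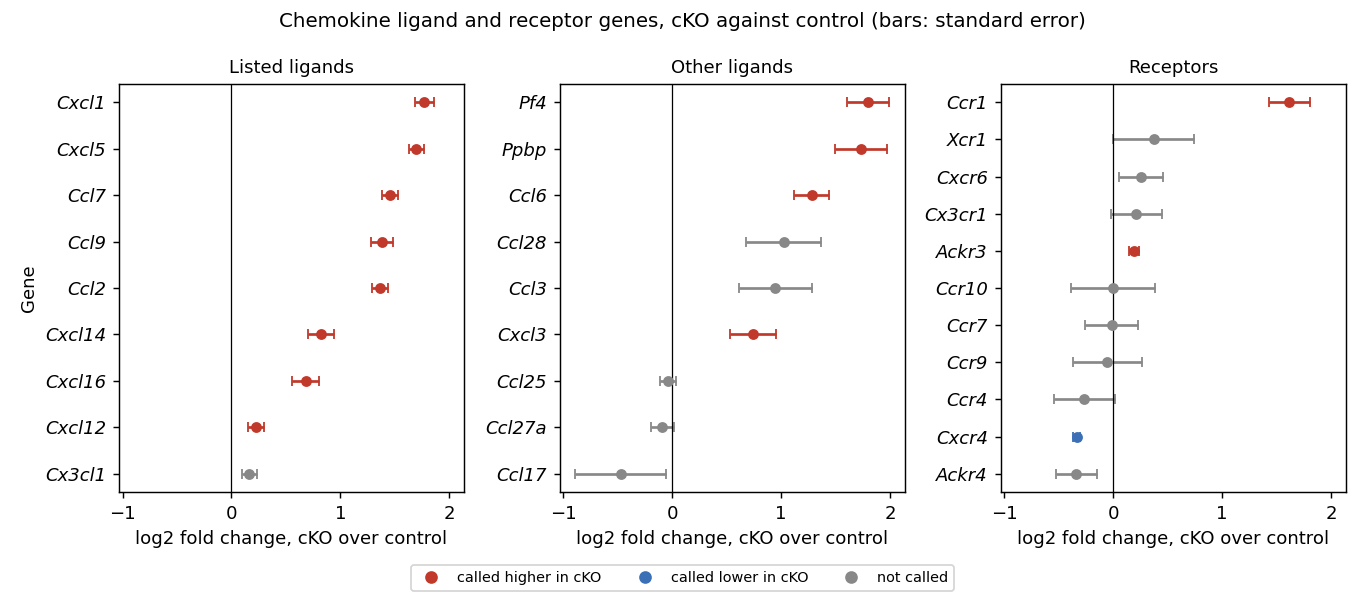
Log2 fold change of cKO over control (points, x axis) with its SE (bars) for the 9 tested listed ligands, the other ligands and the receptors named in the text. Red points were called higher, blue points lower and grey points not called at an adjusted p under 0.05 in edgeR. The 5 listed ligands with the largest differences lie between 1.37 and 1.77, and Cxcr4 is the receptor that was called lower.

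The receptors were read beside the ligands that act on them. Of 17 signalling receptors 10 were tested, and 1 was upregulated and 1 downregulated in cKO in edgeR's quasi-likelihood test, with a median log2 fold change of 0.10. These shares are near those over all genes (9.38% higher and 6.46% lower). CXCR2, the receptor of Cxcl1, Cxcl2 and Cxcl5, was almost undetected, with 2, 5 and 0 counts of Cxcr2 in control and 0, 0 and 6 in cKO. Ccr2, which encodes the receptor of CCL2 and a receptor of CCL7, had 2, 1 and 4 counts in the 3 controls and 7, 19 and 4 in the cKO samples and was not tested either. Transcripts of these receptors were thus near the limit of detection in either group.
Ccr1, a receptor gene for CCL9, rose from 0.531, 0.553 and 0.375 CPM in control to 1.71, 1.45 and 1.41 CPM in cKO, with a log2 fold change of 1.62 (SE 0.19, edgeR adjusted p = 2.42e-05). The groups did not overlap.
Cxcr4, the receptor of Cxcl12, was far above the other receptors in counts and fell from 121, 124 and 124 CPM in control to 96.6, 102 and 98.5 CPM in cKO. The log2 fold change was -0.33 (SE 0.03, edgeR adjusted p = 2.84e-06), and no sample left out changed the call. Of 5 atypical receptors 2 were tested and 1 was upregulated, Ackr3, which takes up CXCL12 without G-protein signalling. It was at 31.8, 33.3 and 35.4 CPM in the control samples and 39.9, 40.0 and 37.0 CPM in the cKO samples. Its log2 fold change of 0.19 (SE 0.05, edgeR adjusted p = 0.00923) lost its call when control replicate 1 was left out (adjusted p = 0.0583). Cxcl12 and its receptors were thus the chemokine genes with the most counts in these cultures, and the groups overlapped for the ligand alone among them.
Cxcr6 and Cx3cr1, the receptors of the membrane-anchored ligands, had log2 fold changes of 0.25 (edgeR adjusted p = 0.471) and 0.21 (adjusted p = 0.630). Ccr4, Ccr7, Ccr9, Ccr10, Xcr1 and Ackr4 were not called either, with log2 fold changes from -0.34 to 0.37. Adam10 and Adam17 encode the sheddases that release CXCL16 and CX3CL1 from the membrane. Adam10 was lower in cKO (78.2 ± 4.67 CPM in the control and 70.4 ± 5.12 in the cKO group, SD, n = 3 each; log2 fold change -0.18, edgeR adjusted p = 0.0284), and its group ranges were 73.6 to 82.9 and 64.4 to 73.4 CPM. This call was lost with total counts alone as the scaling, with the replicate block and without control replicate 1, control replicate 3 or cKO replicate 1. For Adam17 the log2 fold change was 0.06 (adjusted p = 0.238). Both belong to a list of 7 proteases that shed or cut chemokines, of which 4 were tested, and the 1 upregulated gene was Mmp9, a gelatinase (log2 fold change 1.46, edgeR adjusted p = 0.00607).

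Genes of NF-kB signalling, a main pathway to inflammatory chemokine genes, were examined as another list. Of 13 factors and feedback inhibitors, all tested, 2 were upregulated and 0 downregulated, a share near the 15.8% of all genes called in either direction, with a median log2 fold change of 0.01. At an unadjusted p under 0.05, 3 were higher and 1 lower, and with DESeq2 1 was called higher and 0 lower. Nfkbiz, whose protein acts as a nuclear cofactor at selected NF-kB targets, rose from 17.1 ± 0.988 to 25.3 ± 2.50 CPM (SD, n = 3 each), with a log2 fold change of 0.54 (SE 0.06, edgeR adjusted p = 2.69e-05). Ikbkb, a kinase of the pathway, differed by 0.13 on the log2 scale (adjusted p = 0.0215). Without each control sample in turn 1 gene of the list was called higher, and with total counts alone 3. The feedback inhibitors Nfkbia and Tnfaip3 had log2 fold changes of 0.05 (adjusted p = 0.426) and 0.01 (adjusted p = 0.905).
Among 17 cytokines that induce chemokines and their receptors, 15 were tested, 4 upregulated and 2 downregulated, beside 9.38% and 6.46% of all genes, with a median log2 fold change of 0.11. Upregulated were Il6 (log2 fold change 0.89, edgeR adjusted p = 0.00908), the interleukin 1 antagonist Il1rn (1.48, adjusted p = 6.55e-05), the co-receptor Il1rap (0.49, adjusted p = 4.46e-05) and the interferon gamma receptor Ifngr2 (0.31, adjusted p = 0.000548). Downregulated were Il17ra (-0.22, adjusted p = 0.000433) and Tnfrsf1b (-0.20, adjusted p = 0.00796). The inducing cytokine genes Il1b, at 5.60 ± 0.794 CPM in the control and 5.09 ± 0.581 in the cKO group, and Tnf, at 0.371 ± 0.0970 and 0.549 ± 0.133 CPM (SD, n = 3 each), were not called (adjusted p = 0.383 and 0.243).

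Several of the ligands lie in clusters. Cxcl1, Cxcl5, Ccl2, Ccl7 and Ccl9 were listed with their differences in view, so their calls in the clusters are a description. The CXC cluster on chromosome 5 (90759360 to 90905938) holds 7 chemokine genes, and all 5 that were tested (Cxcl5, Ppbp, Pf4, Cxcl3 and Cxcl1) were called higher in cKO. Of 9 other tested genes within 0.5 Mb on either side, 2 were called higher, Rassf6 (log2 fold change 1.49) and Ereg, 1 was lower, Btc (-0.46), and the median was 0.06, beside 9.38% of all genes called higher and 6.46% lower. On chromosome 11 (82035571 to 82305690), Ccl2 and Ccl7 were the 2 tested genes of 6 in their cluster. The 4 other tested genes within 0.5 Mb had log2 fold changes from -0.08 to 0.05 and were not called. In the cluster of Ccl9 on chromosome 11 (83525778 to 83664683), Ccl9 and Ccl6 were called higher, while Ccl3 and Ccl5 were tested and not called. Of 22 other tested genes within 0.5 Mb, 5 were called higher and 2 lower, with a median of 0.07, and the largest value was 1.77 for Slfn2. Counts of so few neighbours were not tested against the share over all genes.

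**Figure D3:**
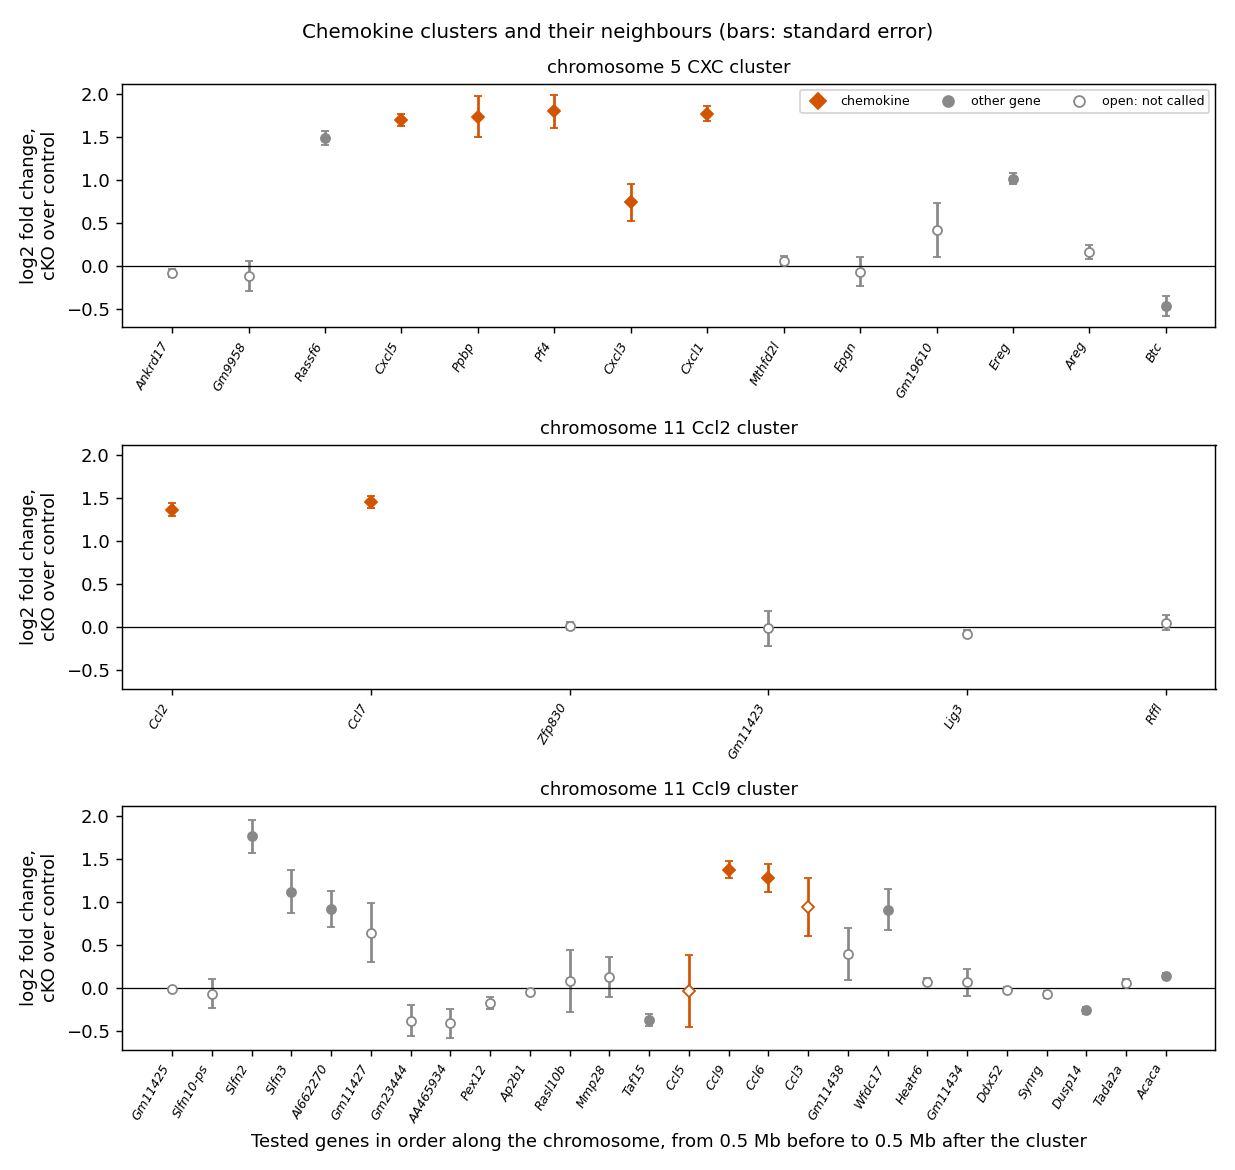
Log2 fold change of cKO over control (y axis, bars are SEs) of all tested genes in order along the chromosome around the 3 chemokine clusters. Orange diamonds are chemokines and grey circles other genes, filled where called. Cxcl5, Ppbp, Pf4 and Cxcl1 lie between 1.70 and 1.80, and the 4 genes beside Ccl2 and Ccl7 lie between -0.08 and 0.05.

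Markers of other cell types differed between the groups as well. Beside the calls given next, 9.38% of all genes tested were called higher and 6.46% lower. All 20 macrophage markers were called higher in cKO (median log2 fold change 1.06), and 19 with DESeq2. The summed level of these markers was 162 to 169 CPM in control and 340 to 398 CPM in cKO. None of these markers was at 0, and the sum was highest in cKO replicate 2, as were the levels of all tested ligands but Ccl9 and the sums of the fibroblast, endothelial and smooth muscle markers given next. Fibroblast markers were called higher for 8 of 11 tested genes (median 0.70), with sums of 1259 to 1340 CPM in control and 1709 to 1903 CPM in cKO. Endothelial markers were called higher for 5 of 12 (median 0.41), and for 3 with DESeq2, with sums of 22.7 to 24.8 and 33.2 to 39.6 CPM. Smooth muscle and pericyte markers were called higher for 8 and lower for 1 of 9 tested (median 0.30), with sums of 3264 to 3318 and 3580 to 3726 CPM. The highest count of 1 gene of this list in a sample was 190913, which is most of the sum of that sample. This sum therefore does not stand for the list as a whole. Of 10 neutrophil markers none had enough counts to be tested and S100a9 had 0 counts in all samples, with sums of 0.316 to 0.371 CPM in control and 0.484 to 0.667 CPM in cKO. Of 10 lymphocyte markers 1 was tested and not called, and Ms4a1 and Gzma had 0 counts in all samples, with sums of 0.342 to 0.566 and 0.372 to 0.772 CPM. The paper reports Cdh5 and Pdgfra, genes of the endothelial and fibroblast lists, as upregulated in satellite cells that lack Hira. It also shows VE-cadherin staining in such cells. Whether the markers came from other cells or from the satellite cells was not tested. Nor was the part of other cells in the chemokine differences.
The ligands did not all differ in the same proportion as the summed macrophage markers. Single markers were not compared with the ligands, so a higher ratio to the sum does not set a ligand apart from each macrophage gene. The highest count of 1 macrophage marker in a sample was 12103, which is most of the sum of that sample. Ratios to this sum thus rest largely on 1 gene there. Relative to the summed macrophage markers, Cxcl1 was at 1.72%, 1.57% and 1.99% in control and at 2.67%, 2.70% and 2.89% in cKO. Cxcl5 was at 2.76%, 2.75% and 2.66% in control and at 3.87%, 3.89% and 4.45% in cKO. Both ratios were higher in every cKO sample, as were those of Ccl2 (3.95% ± 0.377 against 4.68% ± 0.174, SD, n = 3 each) and Ccl7 (3.69% ± 0.362 against 4.64% ± 0.169). The samples overlapped for Ccl9, Cxcl14 and Cxcl2. Ratios of Cxcl16, Cxcl12 and Cx3cl1 were lower in every cKO sample, from 0.868% ± 0.0243 to 0.638% ± 0.0194 for Cxcl16 and from 18.7% ± 0.260 to 9.98% ± 0.937 for Cxcl12. Relative to the summed fibroblast markers, the ratios of Cxcl1, Cxcl5, Ccl2, Ccl7, Ccl9, Cxcl14 and Cxcl16 were higher in every cKO sample, those of Cxcl12 and Cx3cl1 were lower and those of Cxcl2 overlapped. The ratio to this sum was 2.54 times as high in cKO as in control for Cxcl1, 1.93 times for Ccl2, 1.32 times for Cxcl14, 1.19 times for Cxcl16 and 0.830 times for Cx3cl1. Relative to Pdgfra alone, a receptor gene of that list chosen after its values were seen, the groups overlapped for Ccl9 and Cxcl14 and the ratio of Cxcl16 was lower in cKO, so the order depends on the marker.

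**Figure D4:**
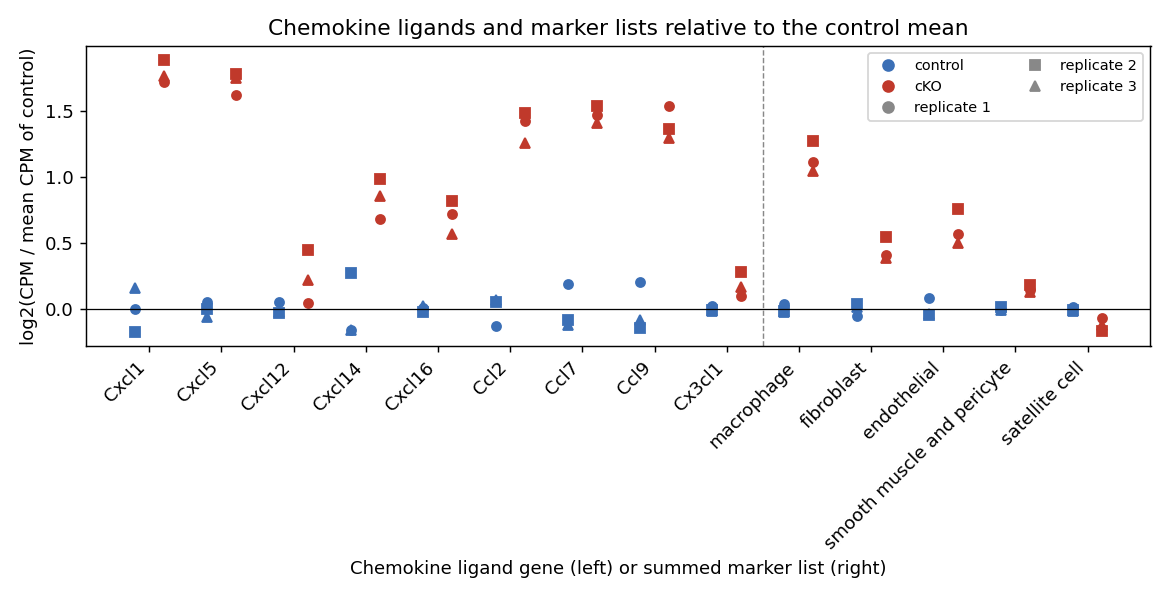
Level of each tested chemokine ligand gene (left of the dashed line) and of the summed markers of 5 cell types (right) in each sample, as log2 of the CPM over the control mean. In cKO the macrophage sums lie between 1.04 and 1.27, Cxcl1 and Cxcl5 lie between 1.62 and 1.89, and Cxcl12 and Cx3cl1 lie between 0.05 and 0.44.

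The patterns over samples were also compared with those of other genes. For the 3 ligands with the highest mean CPM, the 3 protein-coding genes with the most alike log2 CPM over the 6 samples were taken from 12312 genes with a mean of at least 1 CPM. These were Tirap, 4930402H24Rik and Trim56 for Cxcl12 (Pearson's r of 0.996, 0.995 and 0.993). For Ccl2 they were Lrrc32, Pear1 and Abcc4 (0.9995, 0.999 and 0.999), and for Ccl7 Flt1, Lgals3bp and Ppic (0.999 each for the first pair, and 0.998). The 6 points are the same libraries in 2 groups, so that any gene with a clear difference between the groups has a high r, and the values only describe the likeness. Lrrc32 had a log2 fold change of 1.37, as did Ccl2.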

How the data were processed

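Reads (single-end, 75 bp, from ribosome-depleted RNA) were aligned by the authors to mm10 with Bowtie2 2.3.4.2 and counted per gene with featureCounts 1.6.3; the authors deposited raw counts for each sample, which were used here. Bowtie2 does not split reads over introns, so reads over exon junctions may be lost. Their tables of normalized counts and of their own comparison (DESeq2 2.11.40.6: fold changes and p-values) were not used. All 55536 identifiers were found in GENCODE M21. Genes were filtered by filterByExpr, scaled by TMM and tested with edgeR 4.0.16 in R 4.3.3 (quasi-likelihood, genotype only, calls at a Benjamini-Hochberg adjusted p under 0.05 over 22404 genes). Simulated data were used to check the scripts. Alternatives were DESeq2 1.42.0, RLE or total-count scaling, no filter, a replicate block and leaving out each sample. Shared sequence was measured as exact 75-base windows of transcripts. The members and gene lists were chosen with earlier results of these data known. Named were all members, and the other listed ligands and receptors that were called or had at least 10 counts in every sample of a group, and the neighbours and list genes named were picked after their values were seen. A receptor of the list is not reported here. Marker sums used as denominators were chosen after the values were seen. Sequences are from RefSeq. Sums and plots used Python 3.11.15, pandas 2.3.3 and matplotlib 3.10.9.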

Additional observations from a re-analysis of the deposited data

How the results depend on the processing

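The number of listed ligands called higher in cKO was 7 to 8 when any sample was dropped, 8 under RLE scaling, total counts, no filter and DESeq2, and 7 with the replicate block, and none was called lower. These ligands were listed with the difference in view, so the counts describe how the calls depend on the setting and are no support for it. Scaling by total counts called 2462 genes higher and 1057 lower, so that 70.0% of the calls were higher in place of 59.2%, and moved the median of all genes to 0.02. The replicate block, whose numbers do not pair the samples (correlation of deviations from -0.0145 to -0.0045 between same-numbered samples), gave 1901 higher and 1251 lower genes. Genes called higher numbered 1571 to 2214 with a sample left out, and genes called lower 917 (without control replicate 1) to 1673, with 934 and 960 without control replicates 2 and 3. Receptors called higher were 2 without the filter on low counts, in place of 1. Proteases called lower were 0 with total counts and with the replicate block, and 0 to 1 with a sample left out. NF-kB genes called higher were 3 with total counts, 1 with DESeq2 and 1 to 2 with a sample left out, and atypical receptors called higher 0 to 1. The causes were not tested. Counts as few as those of Cxcl2, Cxcr2 and Ccr2 allow no statement on a difference.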
